A study of Mus musculus with 12 samples.

Results

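Voltage-gated sodium and calcium channels, the sodium leak channel NALCN and the hyperpolarization-activated (HCN) channels were followed at the transcript level in mouse hippocampal neurons given a miR-148a-3p mimic. The set holds 29 named genes out of 48709 in the count files. They were taken by name, with no threshold on a measured value, but with earlier results of these data known. The shares of called genes below therefore describe this set and do not test it. The set comprises 18 pore-forming subunits and 11 accessory subunits, and all 29 had enough counts to be tested, among 18847 tested genes.

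RNA was sequenced from 12 cultures, 6 given the mimic and 6 given a negative control. A mimic is a synthetic RNA duplex that adds to the amount of a microRNA in a cell. Both groups were primary hippocampal neurons from embryonic day 17 (E17) embryos of CD1 mice, and both received the oligonucleotide in lipid nanoparticles at day 10 in vitro and were collected at day 12, after 48 h. According to the methods of the study, the protein ApoE4 was added together with the nanoparticles in both groups, and the hippocampi of several embryos were pooled for a culture, so that a library stands for a culture and not for an animal. No source used here says whether the 6 cultures of a group came from separate preparations, and the p-values then measure only the spread between these cultures, which may be technical.

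Voltage-gated sodium channels carry the rising phase of the action potential, and their beta subunits tune gating and surface expression. Voltage-gated calcium channels turn depolarization into calcium entry for transmitter release, dendritic signalling and gene regulation, through a pore-forming alpha1 subunit that assembles with an alpha2delta and a beta subunit. HCN channels open on hyperpolarization and carry the pacemaker current of hippocampal neurons, while NALCN passes a resting sodium leak.

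A microRNA recognises transcripts mainly through its seed. The sequences are shown because every site search below starts from them, with the seed in capitals. The mimic on the reagent list of the study has the same letters as mature mmu-miR-148a-3p in RefSeq. The second sequence is the negative control of that list; the series text calls the control a siRNA, so its sites are given on the assumption that this was the oligonucleotide used.
miR-148a-3p mimic: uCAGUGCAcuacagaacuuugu
negative control: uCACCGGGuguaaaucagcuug

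A site was counted where the 3′ untranslated region (UTR) held TGCACTG, which pairs with the full seed, or GCACTGA, which pairs with all but its last base and has A opposite the first base of the mimic. The longest annotated 3′ UTR of each gene was searched on the transcribed strand (GENCODE M21, GRCm38). Such sites were found in 5 of the 29 channel genes (17.2%), namely Scn8a, Scn3b, Cacna1e, Cacna2d4 and Nalcn, against 3303 of 15072 tested genes with a 3′ UTR (21.9%). No channel 3′ UTR held the 8-base match TGCACTGA. The sites of Cacna2d4 and Scn8a are shown because each of these 3′ UTRs holds 2, with 10 bases on either side and the match in capitals. On build GRCm38 the Cacna2d4 matches lie on the plus strand at chr6:119350812-119350818 and chr6:119351969-119351975. Those of Scn8a lie on the plus strand at chr15:101041479-101041485 and chr15:101045629-101045635.
Cacna2d4, site 1: ctgcagctgcTGCACTGggccaagcac
Cacna2d4, site 2: ctcgtgcctgGCACTGAggaatcgttt
Scn8a, site 1: gacccagcccTGCACTGttcactgtat
Scn8a, site 2: cattttaaacTGCACTGctccaccacc

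Library totals ran from 20018234 to 37149112 counts, and levels are given in CPM, counts scaled to the size of each library with TMM factors. Markers of neurons were abundant, with the summed level of 12 neuron genes at 9256 to 10065 CPM in control and 9570 to 9974 CPM in mimic, and the cultures also held glial markers. Control replicate 1, the shallowest library, lay outside all 11 other libraries in 18 of 29 channel genes (62.1%) and in 43.9% of all tested genes. Control replicate 4 did so in 10 channel genes (34.5%) and in 18.3% of all tested genes, and mimic replicate 3 in 8 (27.6%) and in 14.97% of all tested genes. The channel genes varied more among controls, with a median coefficient of variation of 8.92% in control and 4.42% in mimic, and the control value was the larger in 27 of 29 genes. Over all tested genes it was the larger in 72.0%.

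Of the 29 channel genes, 6 were lower and 1 was higher in mimic at an adjusted p under 0.05 (edgeR quasi-likelihood test, Benjamini-Hochberg adjustment over all tested genes). Those called were 24.1% of the set, against 22.2% of all tested genes. Lower calls made up 20.7% of the set against 10.7% of all tested genes, and higher calls 3.45% against 11.5%. The shares of all tested genes depend on how many weakly expressed genes are tested. With a filter of 1 CPM in 6 libraries, 29.3% of tested genes were called, and 53.0% of those calls were higher. The set again had 6 lower calls and 1 higher call. The lower genes were the calcium channel pores Cacna1g, Cacna1d and Cacna1b, the alpha2delta subunit Cacna2d3 and the HCN pores Hcn4 and Hcn3. The higher gene was the alpha2delta subunit Cacna2d4. In 6 genes, the 6 lower ones, the mimic libraries did not overlap the controls (20.7%, against 13.3% of all tested genes in either direction, 5.83% on the lower and 7.43% on the higher side).

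The changes were small. The set had a median log2 fold change, mimic over control, of -0.055, with 18 genes below and 11 above 0, beside -0.012 for all tested genes. Log2 fold changes of the set ran from -0.48 for Hcn4 to 0.44 for Scn4b, close to the 5th and 95th percentiles of all tested genes at -0.47 and 0.50. Without control replicate 1 the calls were 8 lower and 3 higher, and without control replicates 1 and 2, the shallowest libraries, 10 lower and 3 higher, while the share of all tested genes called went from 22.2% to 27.4% and 31.3%. Leaving out control replicate 4 or 5 ended the single higher call, and a test against a minimum change of 1.2-fold left 1 lower call, Hcn4.

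**Figure D1:**
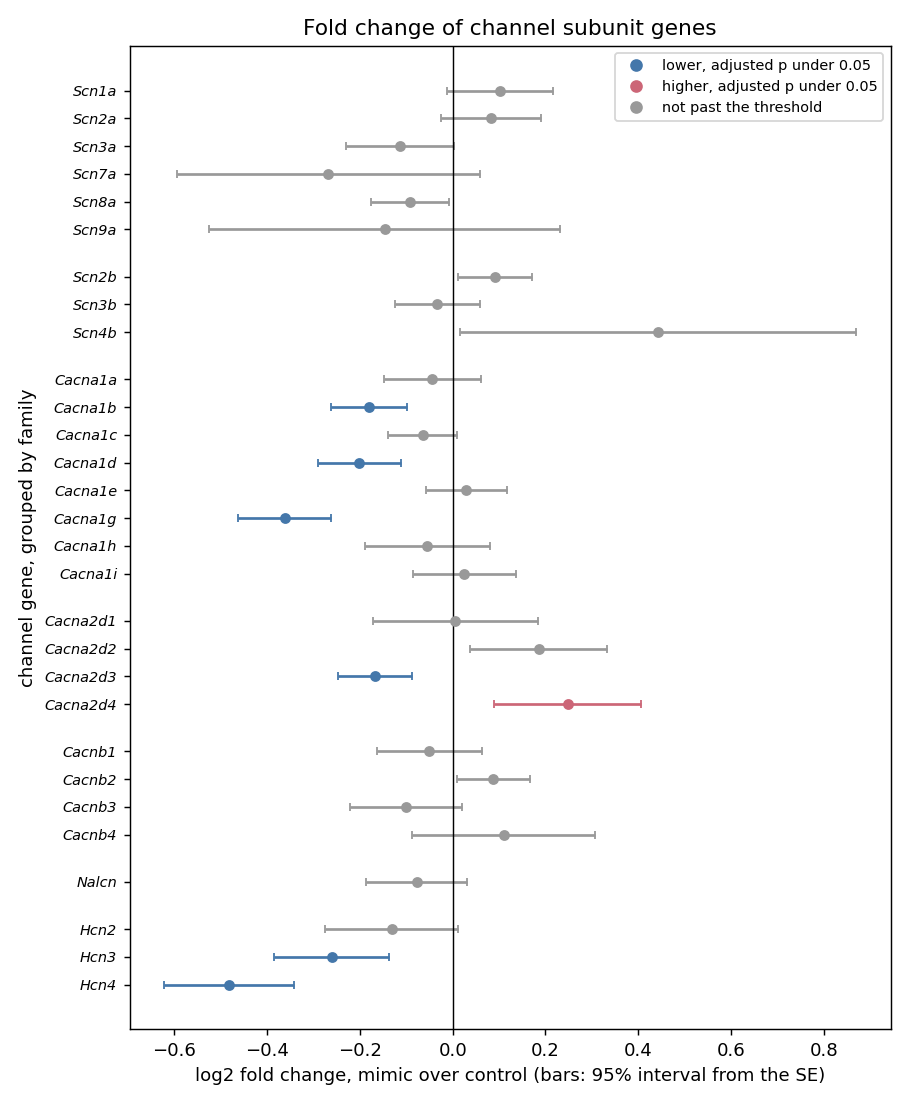
Log2 fold change, mimic over control, of the 29 channel genes (x axis) by family (y axis). Dots are the edgeR estimates from 6 libraries a group and bars their 95% intervals, from the standard error and the t distribution; the 6 blue genes were lower and the 1 red gene was higher past the threshold.

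Pore-forming and accessory subunits were counted apart. Of 18 pore-forming genes, 5 were lower and 0 higher (27.8% called, beside 22.2% of all tested genes and 10.7% on the lower side), with a median log2 fold change of -0.10; at an unadjusted p under 0.05, 6 were lower and 0 higher, and DESeq2 called 5 lower and 0 higher. Of 11 accessory genes, 1 was lower and 1 higher (18.2% called, beside the same 22.2%), with a median of 0.088. At an unadjusted p under 0.05, 5 accessory genes were higher and 1 lower, and DESeq2 called 1 higher and 1 lower. The unadjusted shares were 33.3% of the pore-forming and 54.5% of the accessory genes, beside 32.7% of all tested genes. Whether the 2 kinds of subunit differ was not tested.

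Among the low-voltage-activated T-type calcium channels, which open near the resting potential and drive burst firing, Cacna1g was lower. Cacna1g (ENSMUSG00000020866, chromosome 11, 94408391 to 94474198, minus strand) had 58.0 CPM in the lowest control, a median of 63.2 and 68.9 in the highest, and 45.8, 48.9 and 52.1 CPM in mimic. Every mimic library lay below every control. The group means were 63.1 ± 4.51 and 49.0 ± 2.14 CPM (SD, n = 6 each), a log2 change of -0.36 (edgeR SE 0.048, adjusted p = 2.44e-05), or 22.2% less. The other T-type genes, Cacna1h and Cacna1i, did not pass, with log2 fold changes of -0.055 (95% interval -0.19 to 0.080) and 0.025 (-0.086 to 0.14). Whether Cacna1g differs from them in its response was not tested. The 3′ UTR of Cacna1g held no mimic site, and neither did those of Cacna1h and Cacna1i.

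Among the L-type channels, which feed calcium signals to the nucleus, Cacna1d was lower and Cacna1c was not called. Cacna1d (ENSMUSG00000015968, chromosome 14, 30039939 to 30491455, minus strand) ran from 68.7 over a median of 74.2 to 80.5 CPM in control and from 63.4 over 64.2 to 67.8 CPM in mimic. The groups did not overlap, although the highest mimic library came close to the lowest control. The log2 fold change was -0.20 (SE 0.043, edgeR adjusted p = 0.00214), or 13.0% less, from 74.4 ± 4.98 to 64.7 ± 1.60 CPM (SD, n = 6 each). Exons of Cacna1d share 4.67% of their length with Chdh on the opposite strand, which had 18.8 counts on average against 2076 for Cacna1d. Cacna1c had 199 ± 9.40 CPM in control and 190 ± 4.12 CPM in mimic, with a log2 fold change of -0.065 (95% interval -0.14 to 0.010, edgeR adjusted p = 0.224).

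The N-type channel Cacna1b, which together with the P/Q-type channel Cacna1a supplies calcium for transmitter release, was lower. Cacna1b (ENSMUSG00000004113, chromosome 2, 24603887 to 24763152, minus strand) had 242 CPM in the lowest control, a median of 263 and 282 in the highest, and 221, 234 and 241 CPM in mimic. The groups were separated by less than 1 CPM. Means were 264 ± 14.1 and 233 ± 7.66 CPM (SD, n = 6 each), a log2 change of -0.18 (edgeR SE 0.039, adjusted p = 0.00235), or 11.8% less. Cacna1a, with 137 ± 12.2 and 133 ± 2.64 CPM, had a log2 fold change of -0.044 (95% interval -0.15 to 0.060). The R-type channel Cacna1e had 264 ± 17.4 and 270 ± 6.82 CPM and a log2 fold change of 0.029 (95% interval -0.058 to 0.12). Neither Cacna1a nor Cacna1e was called in any of the 20 alternatives. In total 3 of 8 calcium channel pores were lower and 0 were higher (37.5% called, beside 22.2% of all tested genes and 10.7% on the lower side), with 3 lower and 0 higher both at an unadjusted p under 0.05 and with DESeq2.

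Of the 4 alpha2delta subunits, which sit outside the membrane and raise the number of channels at the surface, 1 was lower, 1 was higher and the other two did not pass (of all tested genes, 10.7% were lower and 11.5% higher). Cacna2d3 (ENSMUSG00000021991, chromosome 14, 28904943 to 29721864, minus strand) ran from 123 over a median of 126 to 131 CPM in control and from 103 over 115 to 118 CPM in mimic. The groups did not overlap. The log2 fold change was -0.17 (SE 0.037, edgeR adjusted p = 0.00324), or 10.9% less, from 126 ± 2.92 to 113 ± 5.86 CPM (SD, n = 6 each).

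Cacna2d4 (ENSMUSG00000041460, chromosome 6, 119236526 to 119352407, plus strand), the gene with both 3′ UTR sites printed above, had 4.44 CPM in the lowest control, a median of 5.22 and 6.16 in the highest, and 5.79, 6.20 and 6.53 CPM in mimic. The groups overlapped, since control replicate 1 reached the level of the mimic libraries and 3 of 6 mimic libraries lay above all controls. Means were 5.22 ± 0.584 and 6.16 ± 0.292 CPM (SD, n = 6 each), a log2 change of 0.25 (edgeR SE 0.075, adjusted p = 0.0234), or 18.8% more. This call was lost without control replicate 4 (log2 fold change 0.23, edgeR adjusted p = 0.0555) and without control replicate 5 (0.20, edgeR adjusted p = 0.0592). Cacna2d2 did not pass with all libraries (7.39 ± 0.708 and 8.40 ± 0.484 CPM, log2 fold change 0.19, 95% interval 0.038 to 0.33, edgeR adjusted p = 0.0673). It passed without control replicate 1 (edgeR adjusted p = 0.0378), control replicate 3 (0.0317) or mimic replicate 2 (0.0492). Cacna2d1 differed more between controls than any other subunit of its kind, from 134 to 196 CPM, and had a log2 fold change of 0.0057 (95% interval -0.17 to 0.18).

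Of the 4 beta subunits, cytoplasmic partners that traffic the pore and set its gating, 0 were called by edgeR or by DESeq2, and 1, Cacnb2, had an unadjusted p under 0.05. Over all tested genes the edgeR shares were 22.2% called and 32.7% at an unadjusted p under 0.05. Cacnb2 had 39.5 ± 1.14 CPM in control and 42.0 ± 1.72 CPM in mimic, with 5 of 6 mimic libraries above all controls (log2 fold change 0.088, SE 0.038, edgeR adjusted p = 0.1099). It is the 1 channel gene that the study lists as a predicted target of this microRNA, and its longest 3′ UTR held no site by the rule above. Log2 fold changes of the others were -0.050 for Cacnb1 (95% interval -0.16 to 0.064), -0.10 for Cacnb3 (-0.22 to 0.020) and 0.11 for Cacnb4 (-0.087 to 0.31). Exons of Cacnb4 share 16% of their length with the transcript A430018G15Rik on the opposite strand, which had 4.33 counts on average.

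**Figure D2:**
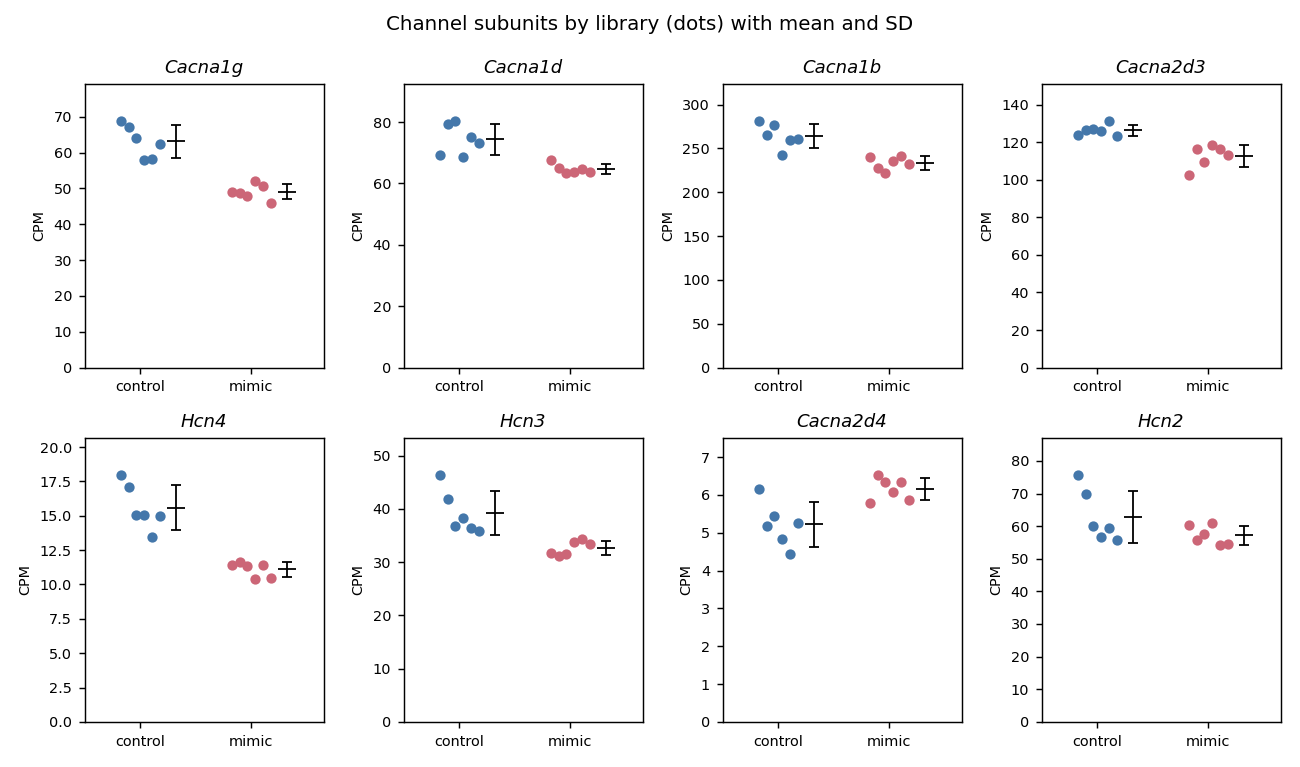
Level in CPM (y axes, each from 0) of the 7 called channel genes and of Hcn2 in the 6 control and the 6 mimic libraries. Dots are libraries in replicate order and the bars beside them mean ± SD; the mimic dots lie below every control dot in Cacna1g, Cacna1d, Cacna1b, Cacna2d3, Hcn4 and Hcn3, and the groups overlap in Cacna2d4 and Hcn2.

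HCN pores gave 2 lower calls out of 3, beside 10.7% of all tested genes on the lower side. Hcn4 (ENSMUSG00000032338, chromosome 9, 58823412 to 58863175, plus strand), the slowest of the family and a pacemaker subunit in thalamus and heart, had 13.4 CPM in the lowest control, a median of 15.1 and 18.0 in the highest, and 10.4, 11.4 and 11.7 CPM in mimic. Every mimic library lay below every control. Means were 15.6 ± 1.64 and 11.1 ± 0.545 CPM (SD, n = 6 each), a log2 change of -0.48 (edgeR SE 0.066, adjusted p = 3.87e-05), or 28.4% less. In absolute size this change stood at the 90.0th percentile of all tested genes. Hcn4 was called in 20 of 20 alternatives, the test against a minimum change of 1.2-fold included (edgeR adjusted p = 0.0107).

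Hcn3 (ENSMUSG00000028051, chromosome 3, 89146074 to 89160196, minus strand) ran from 35.8 over a median of 37.5 to 46.4 CPM in control and from 31.2 over 32.6 to 34.4 CPM in mimic. The groups did not overlap. The log2 fold change was -0.26 (SE 0.058, edgeR adjusted p = 0.00333), or 16.5% less, from 39.2 ± 4.13 to 32.6 ± 1.34 CPM (SD, n = 6 each). Exons of Hcn3 share 17.1% of their length with Pklr on the opposite strand, which had 5.58 counts on average against 1060 for Hcn3. Control replicate 1 was the highest library for Hcn4, Hcn3 and Hcn2; with both shallowest controls left out, the log2 fold changes were -0.40 for Hcn4 and -0.17 for Hcn3, and both calls held.

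Hcn2, the most abundant of the 3, had 62.9 ± 8.06 CPM in control and 57.2 ± 2.93 CPM in mimic, with a log2 fold change of -0.13 (95% interval -0.27 to 0.012, edgeR adjusted p = 0.195). Its log2 fold change was -0.072 without control replicate 1 and -0.017 without both shallowest controls, not called in either fit.

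None of the 9 sodium channel genes was called by edgeR or DESeq2; at an unadjusted p under 0.05, 2 were higher (Scn2b and Scn4b) and 1 was lower (Scn8a), 33.3% of the 9 beside 32.7% of all tested genes. Of all tested genes, 22.2% were called by edgeR. The pores Scn2a, with 429 ± 36.97 CPM in control and 455 ± 19.2 in mimic, and Scn8a, with 216 ± 13.7 and 203 ± 3.53 CPM, are the main sodium channels of excitatory axons. Their log2 fold changes were 0.083 (95% interval -0.024 to 0.19, edgeR adjusted p = 0.282) and -0.092 (-0.18 to -0.0077, edgeR adjusted p = 0.116). Scn8a, which has the 2 sites printed above, had 196 CPM in control replicate 4, below all 6 mimic libraries, and passed without that library (log2 fold change -0.12, edgeR adjusted p = 0.0265).

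Scn1a, the sodium channel on which fast-spiking interneurons rely, had a log2 fold change of 0.10 (95% interval -0.012 to 0.22), with 38.4 ± 3.35 and 41.3 ± 1.93 CPM. Scn3a, the embryonic brain isoform, had 94.6 ± 9.23 and 87.6 ± 3.35 CPM and a log2 fold change of -0.11 (-0.23 to 0.0039). All 6 mimic libraries lay below the control mean in Scn3a, and it passed without control replicate 1 (-0.15, edgeR adjusted p = 0.0103). Scn7a and Scn9a were low, at 2.40 ± 0.658 and 1.22 ± 0.354 CPM in control, with log2 fold changes of -0.27 (-0.59 to 0.058) and -0.15 (-0.52 to 0.23). Scn7a also passed without control replicate 1 (-0.38, edgeR adjusted p = 0.0132). At the 35.3 counts a library that Scn9a had on average, a change of the size seen in Hcn4 lies within its interval. Scn1a, Scn2a, Scn3a and Scn9a shared 4.03% to 6.49% of their 50-base transcript windows with one another, so a small share of the 50 bp reads of these genes could not be placed on 1 of them.

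The sodium channel beta subunits were not called. Scn2b had 89.6 ± 4.43 CPM in control and 95.4 ± 2.73 CPM in mimic, with 4 of 6 mimic libraries above all controls (log2 fold change 0.091, SE 0.037, edgeR adjusted p = 0.0970). It passed without control replicate 1 (0.11, edgeR adjusted p = 0.0176). Scn3b, with 187 ± 12.5 and 183 ± 6.24 CPM and 1 mimic site, had a log2 fold change of -0.033 (95% interval -0.13 to 0.058). Scn4b was near the count filter at 18.4 counts a library and ran from 0.358 to 0.807 CPM in control and from 0.565 to 0.808 CPM in mimic, with a log2 fold change of 0.44 (0.015 to 0.87, edgeR adjusted p = 0.138). It passed without control replicate 2, its highest control (0.58, edgeR adjusted p = 0.0442). Nalcn had 146 ± 11.7 and 138 ± 7.49 CPM, a log2 fold change of -0.077 (-0.19 to 0.031) and 1 mimic site. Without both shallowest controls, Nalcn (-0.14, edgeR adjusted p = 0.0027) and Scn3b (-0.088, edgeR adjusted p = 0.0235) passed.

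**Figure D3:**
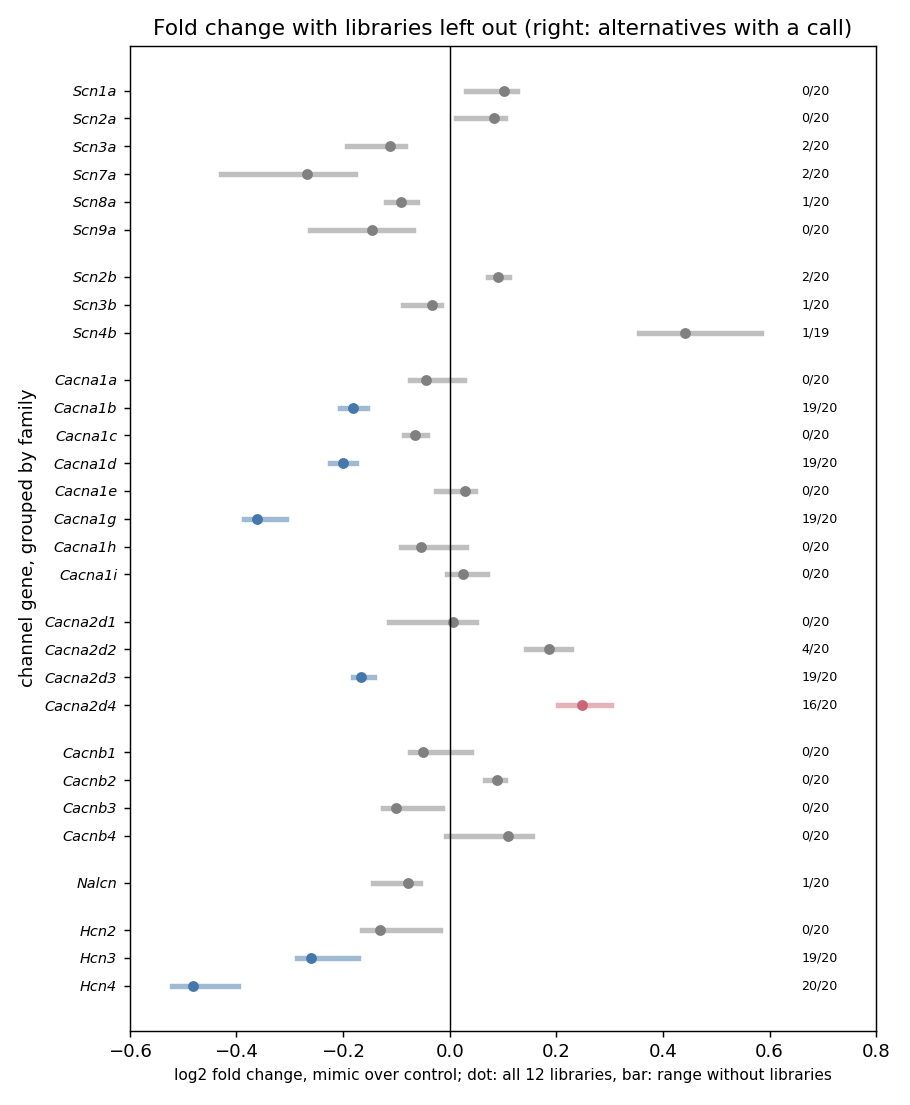
Log2 fold change, mimic over control (x axis), of the 29 channel genes (y axis) with libraries left out. Dots use all 12 libraries, bars span the fits without each library in turn and without both shallowest controls, and the right column counts the alternatives in which the gene was called; Hcn4 was called in 20 of 20, and Cacna1g, Cacna1b, Cacna1d, Cacna2d3 and Hcn3 in 19 of 20.

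Levels of different genes were set side by side per kilobase of annotated exon, counting every base that any annotated transcript uses, which lowers the level of genes with many long isoforms. In control the order began with Scn3b at 34.2 ± 2.29 CPM per kilobase (SD, n = 6) and Scn2a at 33.7 ± 2.90, which did not differ beyond their spread. Cacnb3 at 28.3 ± 2.99, Cacna1b at 26.6 ± 1.42, Cacnb1 at 21.5 ± 2.20, Hcn2 at 19.7 ± 2.52 and Scn2b at 19.3 ± 0.951 came next. In this order the SD ranges of Scn2a and Cacnb3 overlapped, as did those of Cacnb3 and Cacna1b, of Cacnb1 and Hcn2, and of Hcn2 and Scn2b. The lowest were Cacna2d4 at 0.551 ± 0.0617, Scn7a at 0.327 ± 0.0896, Scn4b at 0.106 ± 0.0354 and Scn9a at 0.0956 ± 0.0277, the last pair within their spread. The single gene called higher was thus among the least expressed members.

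**Figure D4:**
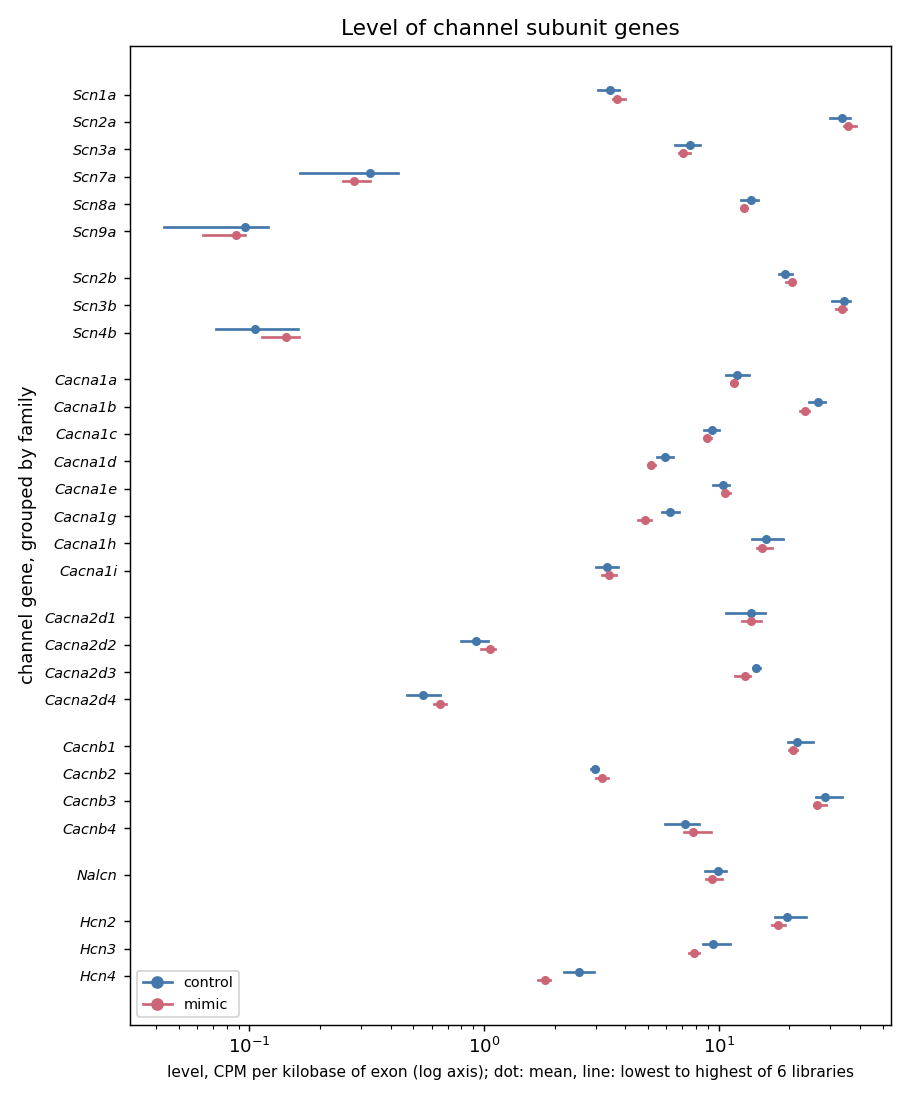
Level of the 29 channel genes in CPM per kilobase of exon (x axis, logarithmic), by family (y axis). Dots are group means and lines run from the lowest to the highest of 6 libraries; Scn3b and Scn2a are at the top, Scn9a and Scn4b are at the bottom, and the lines of the 2 groups do not overlap in the 6 lower genes.

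The make-up of each family was described as the share of a gene in the summed CPM per kilobase of the family within a library, over the genes of the family reported here. Such shares do not depend on the scaling between libraries. Cacna1g made up 6.63% to 7.17% of the calcium channel pores in control libraries and 5.47% to 6.11% in mimic libraries, with no overlap. Cacna1b was the largest part of this family, at 28.9% to 30.1% in control and 27.3% to 28.5% in mimic, also with no overlap. Shares of the other lower calcium channel genes overlapped between the groups: Cacna1d made up 5.75% to 6.89% of the pores in control and 6.01% to 6.27% in mimic, and Cacna2d3 45.8% to 53.3% and 42.6% to 47.5% of the alpha2delta subunits. Of the sum of the 3 HCN genes, Hcn4 made up 7.42% to 8.61% in control and 5.88% to 7.10% in mimic, with no overlap. Shares of Hcn2 (60.3% to 62.9% and 62.6% to 66.5%) and Hcn3 (29.04% to 31.3% and 26.96% to 30.5%) overlapped. Scn2a was the main sodium channel pore at 54.2% to 58.5% in control and 58.4% to 60.5% in mimic, an overlap at the edge. The summed level of the calcium channel pores was 82.5 to 95.3 CPM per kilobase in control and 81.5 to 85.6 in mimic, and that of the 3 HCN genes 28.5 to 37.8 and 26.8 to 28.9, so the sums overlapped. Summed in CPM without division by length, the 3 HCN genes had 106.4 to 140.0 in control and 98.2 to 105.2 in mimic, with no overlap. The 8 calcium channel pores had 1106.1 to 1253.7 and 1106.8 to 1142.5 CPM, which overlapped.

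Sites for the oligonucleotides were then set beside the changes. None of the 6 lower channel genes had a mimic site in its longest 3′ UTR, and the 1 higher gene, Cacna2d4, had 2. The log2 fold changes of the other genes with a site were -0.092 for Scn8a, -0.033 for Scn3b, 0.029 for Cacna1e and -0.077 for Nalcn. Among all tested genes with an annotated 3′ UTR, the median log2 fold change was -0.036 with a mimic site in it and 0.0014 without. Over any part of an annotated transcript, coding sequence included, a mimic site was present in 16 of 29 channel genes (55.2%) and in 41.1% of tested genes, and in 2 of the 6 lower ones, Cacna1b and Cacna2d3. A match says only that the letters are there.

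For the negative control, the matches searched were CCCGGTG and CCGGTGA. They occurred in the 3′ UTRs of 5 of 29 channel genes (17.2%) and of 666 of 15072 tested genes (4.42%). The genes were Scn1a, Scn2a, Scn4b, Cacna1a and Cacna1c, and 0 of the 5 were called by edgeR or DESeq2, beside 22.2% of all tested genes called by edgeR. Scn4b was 1 of them with an unadjusted p under 0.05. Their log2 fold changes, mimic over control, were 0.10, 0.083, 0.44, -0.044 and -0.065. Over all tested genes with an annotated 3′ UTR the median log2 fold change was 0.038 with such a match and -0.0086 without. The Cacna1a match is shown as the 1 channel site that pairs with the full seed and has A opposite the first base, on the plus strand at chr8:84639853-84639860 (GRCm38).
Cacna1a, control site: ctttcgttttCCCGGTGAatgaaaccga

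Genes that bind, anchor or regulate these channels, and further family genes, formed lists of 38 genes, of which 34 were tested. Of these, 4 were higher and 3 lower (20.6% called, beside the 22.2% of all tested genes), with a median log2 fold change of -0.0060. The list of axon initial segment and sodium channel binding genes had 2 higher and 0 lower of 12 (16.7% called). At an unadjusted p under 0.05 it had 3 higher and 0 lower (25.0%, beside 32.7% of all tested genes). Rest, a repressor of neuronal genes whose targets include sodium channels, ran from 13.2 over a median of 15.6 to 16.2 CPM in control and from 18.8 over 19.4 to 21.4 CPM in mimic. Every mimic library lay above every control, with a log2 change of 0.38 (edgeR SE 0.055, adjusted p = 7.16e-05). Ank2, an ankyrin that anchors membrane proteins along axons, was at 1271 to 1401 CPM in control and 1392 to 1471 in mimic, with a log2 change of 0.12 (edgeR SE 0.032, adjusted p = 0.0139), and the groups overlapped. Ank3, the ankyrin that clusters sodium channels at the axon initial segment, had a log2 change of -0.038 (edgeR SE 0.033, adjusted p = 0.473).

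Of 12 tested calcium channel binding and regulation genes, 1 was higher and 2 were lower (25.0% called, beside 22.2% of all tested genes). Rem2 and Gem belong to the RGK family of small GTPases, which bind beta subunits and inhibit calcium channels. Rem2 ran from 8.32 over a median of 9.74 to 12.8 CPM in control and from 13.1 over 15.4 to 17.05 CPM in mimic, while Gem ran from 13.2 over 13.7 to 14.2 CPM in control and from 8.54 over 9.19 to 11.2 CPM in mimic. The groups did not overlap in either gene, and the log2 fold changes were opposite, 0.65 for Rem2 (SE 0.090, edgeR adjusted p = 4.31e-05) and -0.52 for Gem (SE 0.065, edgeR adjusted p = 1.48e-05). Both changes were larger in absolute size than that of any called channel gene. The HCN and NALCN binding list had 1 lower and 0 higher of 5, with 1 higher and 1 lower at an unadjusted p under 0.05 and 1 lower and 0 higher with DESeq2. Its lower gene was Pex5l, known as TRIP8b, which controls the surface expression of HCN channels, at 19.2 to 21.3 CPM in control and 16.9 to 19.7 in mimic (log2 fold change -0.15, SE 0.047, edgeR adjusted p = 0.0260), with overlapping groups. Of the 5 tested further family genes 1 was called. It and the seventh called gene had a mean under 100 counts and are named here after their values were seen. They were the sodium channel Scn11a, at 0.484 ± 0.0631 and 0.740 ± 0.145 CPM (log2 fold change 0.62, SE 0.18, edgeR adjusted p = 0.0168), and the L-type channel adaptor Stac (-0.29, SE 0.084, edgeR adjusted p = 0.0182). The 3′ UTRs of Rest, Rem2, Gem, Pex5l, Scn11a and Stac held no mimic site, and that of Ank2 held 1.

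**Figure D5:**
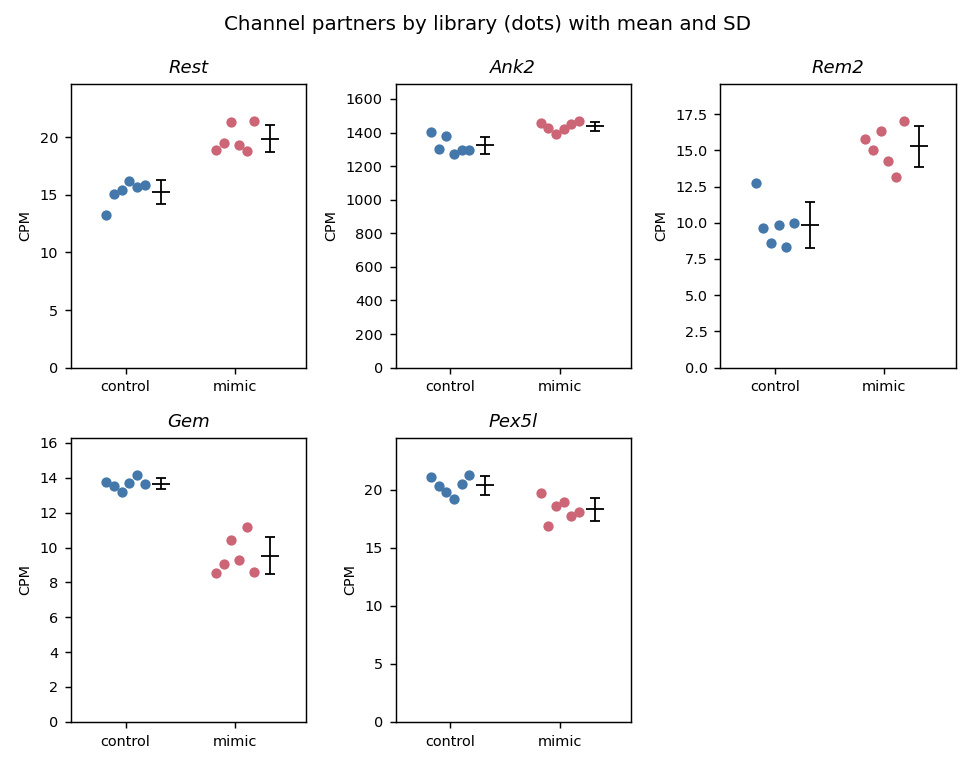
Level in CPM (y axes, each from 0) of 5 called channel partners in the 6 control and the 6 mimic libraries. Dots are libraries in replicate order and the bars beside them mean ± SD; the groups do not overlap in Rest, Rem2 and Gem and overlap in Ank2 and Pex5l.

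Markers of other cells moved with the treatment (of all tested genes, 11.5% were called higher and 10.7% lower). The summed level of 10 astrocyte genes was 5176 to 5694 CPM in control and 6278 to 6710 in mimic, with 7 genes higher and 1 lower; Slc1a3 had a log2 fold change of 0.99 and Slc1a2 of 0.24. The lower one was Gfap, which like Mog, Pvalb, Acta2 and Tagln is named after its value was seen, and its control and mimic means were 1362 ± 70.2 and 731 ± 107 CPM (SD over 6 libraries), with a log2 change of -0.90 (edgeR SE 0.078, adjusted p = 5.52e-07). The 8 oligodendrocyte lineage genes summed to 393 to 681 CPM and 768 to 963 CPM, with 5 higher and 1 lower, Olig1 at 0.96, Olig2 at 0.71 and the lower Mog at -0.36. The 5 cell cycle genes, Top2a and Mki67 among them, summed to 151 to 188 CPM and 321 to 342 CPM, and 5 of 5 were higher. Of the neuron list 2 genes were higher and 3 lower, with Map2 at -0.063 and the called Stmn2 at -0.20. The other called genes, named after their values were seen, were Camk2a at 0.18, Nefm at 0.17, Tubb3 at -0.32 and Neurod2 at -0.27. Of the 12 neuron genes 6 were below 0 and 6 above, with a median of 0.025, and the summed ranges overlapped. Interneuron genes summed to 339 to 374 and 355 to 371 CPM, with 1 higher and 1 lower of 9; the log2 fold change was 0.043 for Gad1, 0.14 for the called Gad2 and -0.85 for the called Pvalb, with 5 of 9 below 0 and a median of -0.039.

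The remaining lists were less abundant (of all tested genes, 10.7% were called lower and 11.5% higher). Mesenchymal genes summed to 201 to 268 CPM in control and 98.1 to 226 in mimic with 2 of 8 lower, endothelial genes to 46.5 to 68.5 and 28.3 to 50.7 with 2 of 4 tested lower, and microglial genes to 9.59 to 11.4 and 8.19 to 15.6 with 1 of 7 lower; none of these genes was called higher, with 0 at an unadjusted p under 0.05 in the higher direction and 0 with DESeq2. The lower mesenchymal genes were Acta2 and Tagln, smooth muscle genes, with log2 changes of -2.86 and -1.74 (edgeR adjusted p = 0.00047 and 7.72e-05). Col1a2 and Col1a1 had log2 fold changes of -0.45 and -0.49, Kdr and Pecam1 of -0.64 and -0.26, and Csf1r and Aif1 of 0.52 and -0.26, and Kdr was the 1 of these that passed. Endothelial Cldn5 was too low to be tested. Kdr made up nearly all of the endothelial sum, with means of 58.6 CPM in control and 37.6 CPM in mimic. Pecam1, next in level, had 0.718 and 0.605 CPM, so the endothelial sum reflects 1 gene. The part of these shifts in the channel results was not tested, and in RNA from whole cultures fewer cells of a type and less RNA per cell cannot be told apart.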

How the data were processed

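RNA of 6 control and 6 mimic cultures was sequenced as 50 bp single-end reads (TruSeq, poly(A) RNA). Per the labels and the study's methods, the authors checked reads with FastQC 0.11.5, aligned them to mm10 with STAR 2.5.2b and made the deposited raw counts per gene with featureCounts of Subread 1.5.1; the strand setting is not given in the sources used here. Reads that match several family members can be lost or split. A deposited table of normalized values was not used. Groups and replicate numbers came from the sample labels.

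Symbols, exon lengths and 3′ UTRs came from GENCODE M21 (GRCm38, the build of mm10), which named 48349 of 48709 genes. The 18847 genes that reached 5 counts in 6 or more of the 12 libraries were tested with edgeR 4.0.16 (R 4.3.3; TMM, robust quasi-likelihood F-test, no covariate), adjusted by Benjamini-Hochberg over all of them and called at an adjusted p under 0.05; filter and threshold are those of the study, which used DESeq2. TMM factors were 0.990 to 1.02. The SE of a log2 fold change was taken as its absolute value over the root of the F statistic, and 95% intervals use the t distribution with edgeR's total degrees of freedom. CPM are relative to the TMM-scaled total.

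Alternatives were DESeq2 1.42.0 (test, and its size factors), upper-quartile factors, no filter, 1 CPM in 6 libraries, a minimum change of 1.2-fold, the replicate number as a block, and leaving out each library or both shallowest controls, 20 in all.

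The members and lists were chosen with earlier results of these data known. Every channel gene is named; of a partner list, called genes with at least 100 counts on average, at most the 3 with the greatest change per direction; of a marker list, at most the 2 with the highest mean CPM. Ank3, the 2 called partners with fewer counts and the marker genes said to be named after their values were seen stand outside this rule. Further family genes that were listed are not reported here and were left out of the partner lists and shares.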

Additional observations from a re-analysis of the deposited data

Results flagged for a closer look

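In each of 58 groups, the 29 channel genes in control and in mimic, the highest and the lowest library were compared with the next one, and noted where the gap was a larger part of the range of the 6 than Dixon's critical value. Chance flags about 1 in 20 groups, here 2.9 of 58, and 5 were noted. All 5 were mimic libraries, and none was control replicate 1. Mimic replicate 1 stood above the others in 3 calcium channel genes: Cacna1d had 67.8 CPM there against 63.4 to 64.9, Cacna1h 164 against 142 to 150, and Cacnb3 115 against 102 to 106. Mimic replicate 3 had 94.0 CPM of Scn3a, where the others ran from 84.5 to 87.9. Mimic replicate 5 had 0.809 CPM of the weakly expressed Scn9a, where the others ran from 1.12 to 1.22. Of these genes Cacna1d was the 1 called, and it was called without mimic replicate 1 as well.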

How the results depend on the processing

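Over 20 alternatives the direction of the 7 called genes held. Hcn4 was called in 20, Cacna1g, Cacna1b, Cacna1d, Cacna2d3 and Hcn3 in 19, each lost under the minimum change of 1.2-fold (edgeR adjusted p of 0.106 for Cacna1g and 1 for the other 4), and Cacna2d4 in 16. Under that minimum, 0 channel genes were higher and 1 lower, and 683 and 352 of all tested genes. Leaving out each library in turn gave 0 to 3 higher and 6 to 8 lower channel genes, and leaving out both shallowest controls 3 and 10 (3058 and 2892 of all tested genes, against 2163 and 2019 with all libraries). The added calls without both were Scn3a, Scn7a, Scn3b, Nalcn, Scn2b and Cacna2d2. The cause of these moves was not tested.

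Of the 579 log2 fold changes of channel genes under the alternatives, 13 changed sign, all of genes that were not called. That of Cacna2d1 became -0.013 with upper-quartile factors, -0.055 without control replicate 1, -0.031 without control replicate 2, -0.0093 without mimic replicate 2, -0.020 without mimic replicate 3 and -0.11 without both shallowest controls. Cacnb1 became 0.0011 without control replicate 1 and Cacna1i -0.0046 without control replicate 6. With each library left out in turn, Cacna2d1 ran from -0.055 to 0.048, Cacnb1 from -0.075 to 0.0011 and Cacna1i from -0.0046 to 0.059. Without both shallowest controls Cacna1a became 0.026, Cacna1e -0.025, Cacna1h 0.030, Cacnb1 0.039 and Cacnb4 -0.0063.

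With the replicate number as a block, 0 channel genes were higher and 6 lower, since Cacna2d4 lost its call (log2 fold change 0.25, edgeR adjusted p = 0.0557); no other channel call changed. Same-numbered samples did not deviate together (correlations -0.034 to 0.078), and none of the 6 control libraries correlated best with the mimic library of its own number, so the numbers only name samples. Higher genes were 51.7% of all calls, 44.0% with upper-quartile factors and 66.0% under the minimum change. Scn4b and Scn9a had 18.4 and 35.3 counts a library, and their 95% intervals were among the widest of the set.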
